A study of Sus scrofa with 54 samples.

Results

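The complement cascade is a set of blood and tissue proteins that mark microbes and damaged cells. The genes examined here are C3, C5, C7 and C9 with complement factor B (CFB) and complement factor D (CFD), taken as every probeset to which the platform annotation gives one of these 6 symbols. They were represented by 9 of the 23999 probesets tested, with 1 probeset each for C3, C5 and CFD and 2 each for C7, C9 and CFB. The arrays measured RNA from the whole ileum of 54 Large White × Landrace piglets, and 6 piglets made up each of the 9 groups, every piglet having its own array. IR piglets were taken from indoor sows on the first day of life, kept singly in isolators, given milk replacer until day 28 and treated with antibiotics every day throughout. IN piglets suckled an indoor sow and OUT piglets an outdoor sow until weaning at day 28, and ileum was collected at days 5, 28 and 56. All piglets shared 1 sire, and IR and IN piglets came from the same sows, so that IR differed from IN in housing, milk source and antibiotics together. The labels do not name the sow, and therefore p-values treat littermates as independent.

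In the alternative pathway C3b, the large fragment of C3, binds factor B, and factor D then cuts the bound factor B to form an enzyme that cleaves more C3. The same enzyme with added C3b cleaves C5, and the C5b fragment gathers C6, C7, C8 and several copies of C9 into a pore in the target membrane. The liver makes most complement protein in blood, while intestinal epithelium, macrophages and stromal cells make some of it locally. In whole tissue, fewer cells of a type and less RNA per cell cannot be told apart.

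The epithelial markers were high, with the mean over 7 of them between 11.33 and 12.48 on the log2 scale in 53 arrays, and the mean over 6 liver cell markers was low, between 2.17 and 3.84 in all 54, beside array medians of 3.98 to 4.21. The array of OUT replicate 3 at day 5 stood apart. Its epithelial mean was 9.85, against 11.64 to 11.93 in the other 5 OUT piglets of day 5. Not every epithelial marker was low in an OUT piglet of that day. The lowest and highest OUT values were 7.66 and 13.40 for FABP2 and 8.51 and 11.78 for VIL1. They were 12.81 and 12.94 for EPCAM and 11.90 and 12.25 for KRT8. Replicate 3 had a neutrophil mean over 4 markers of 6.51, against 1.85 to 2.24 in the other 5. It also held the highest value of its group at C3 (13.96), at both C7 probesets (10.33 and 10.62), at both CFB probesets (12.26 and 11.31) and at CFD (10.92). Comparisons of day 5 OUT piglets, differences between days and correlations were computed again without it, and the values are given where a result named here moved. The mean over 2 B cell and follicle markers, CD79B and CXCL13, was above 8 in 5 arrays, namely IN replicates 2 and 6 of day 28 (10.43 each), OUT replicate 6 of day 28 (8.92) and OUT replicates 2 and 5 of day 56 (10.55 and 10.91). It was at most 7.43 in the other 49, and comparisons were also computed again without these 5 arrays, a choice made after the values were seen.

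Levels of the leading probeset of each gene, the brighter one where there were 2, spanned different ranges of group means. These are deposited log2 signals normalized by gcRMA, and signals of different probesets are not compared with each other. C5 had the widest span, 2.58 between its lowest group mean (IN day 5) and its highest (IN day 56), and C3 the narrowest, 0.66 between IN day 28 and IR day 28. The groups accounted for 59.6% of the total variance of C5 over the 54 arrays. Days accounted for 51.3% of that total and rearing, averaged over days, for 0.526%. The rest of the 59.6% lay in rearing differences that varied with day. For CFB the groups accounted for 25.6%, and the other 74.4% lay among piglets of the same group.

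**Figure D1:**
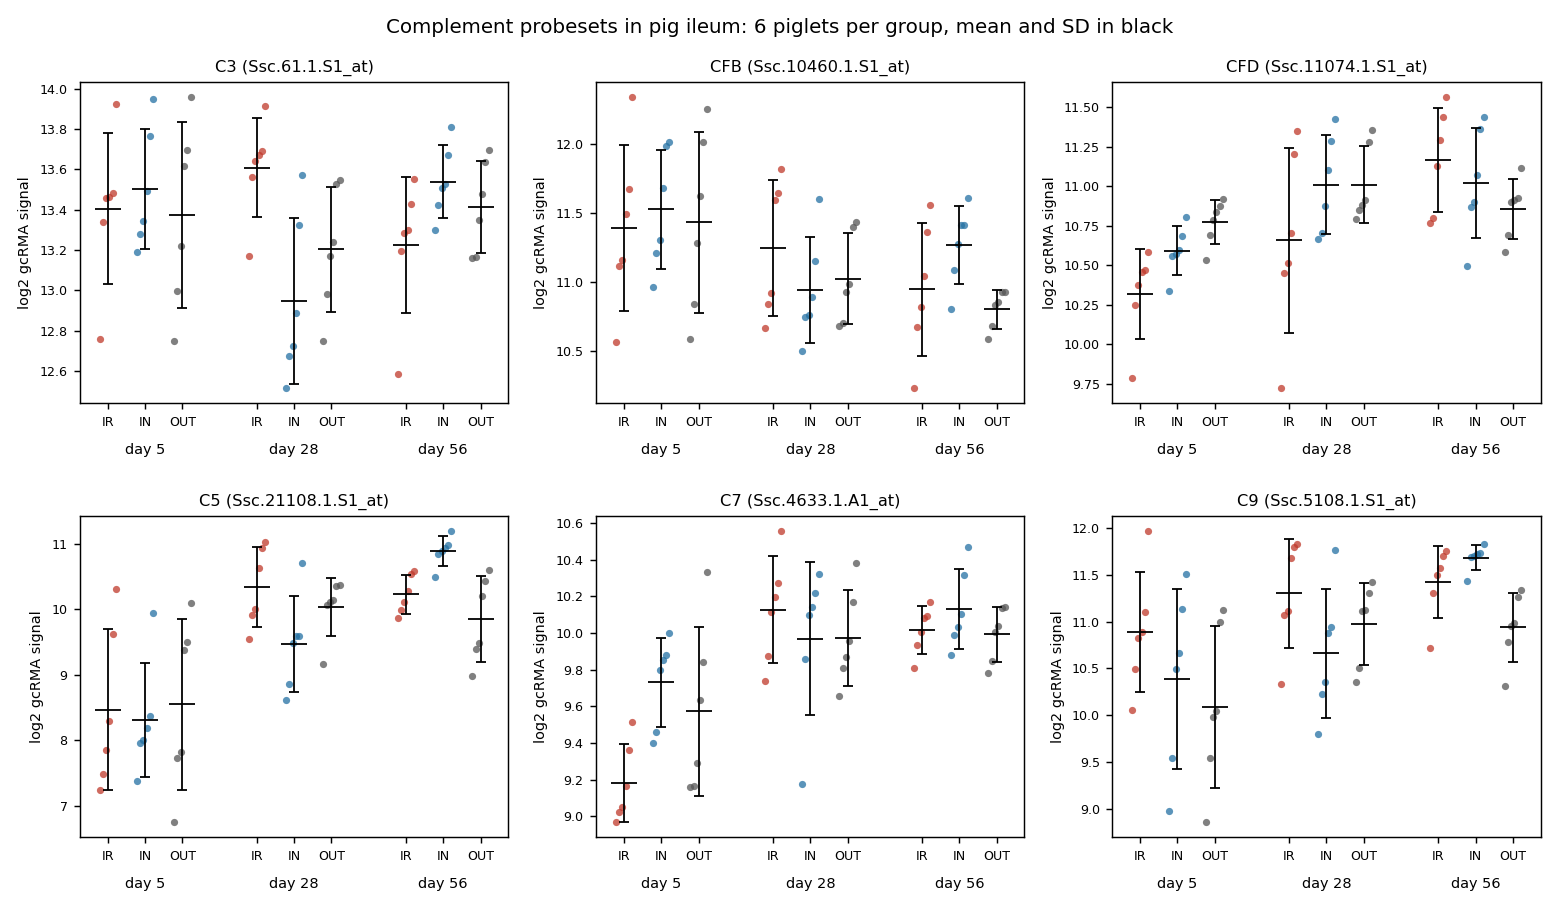
Deposited log2 signal (vertical axis) of the leading probeset of each of the 6 genes by day and, within a day, by rearing in the order IR, IN, OUT (horizontal axis), with 1 point per piglet and the mean and SD of 6 piglets in black. C5 was spread between 6.74 and 10.31 over the 18 piglets of day 5 and lay between 10.50 and 11.20 in the 6 IN piglets of day 56.

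C3, the component on which all activation routes converge, had high signals in every piglet, from 12.51 to 13.96. At day 5 its mean was 13.40 ± 0.37 in IR, 13.50 ± 0.30 in IN and 13.37 ± 0.46 in OUT (SD, n = 6 each). At day 28 the lowest, median and highest values were 13.17, 13.66 and 13.91 in IR piglets, 12.51, 12.81 and 13.57 in IN piglets and 12.75, 13.20 and 13.55 in OUT piglets. Of the 6 IR piglets 4 lay above every IN piglet, although the 2 groups overlapped. IR over IN thus came to 0.66 on the log2 scale (standard error 0.19, limma p = 0.00252, adjusted p = 0.436, exact permutation p = 0.0173), a 1.58-fold difference. At day 56 the order of these groups was the opposite, with 13.22 ± 0.34 in IR, 13.54 ± 0.18 in IN and 13.41 ± 0.23 in OUT (SD, n = 6 each) and a value of -0.32 for IR over IN (limma p = 0.0473, adjusted p = 0.803, exact permutation p = 0.0541). The IR mean included the unnumbered piglet at 12.59, with the next IR piglet at 13.19. The medians of day 56 were 13.29 in IR and 13.52 in IN.

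The IR over IN contrast of C3 therefore differed between days by -0.98 on the log2 scale for day 56 minus day 28 (standard error 0.27, limma adjusted p = 0.338 over all probesets). Without the 5 arrays high in B cell and follicle markers the difference just passed a size of 1 with p below 0.01 before adjustment (limma adjusted p = 0.174). With all arrays it had the smallest unadjusted p among the 81 differences between days of a rearing contrast, formed from 9 probesets and 9 differences. None of the 81 met both conditions of a call, namely p below 0.01 before adjustment and a size of 1 or more on the log2 scale, and 12 (14.8%) had an unadjusted p under 0.05, beside 3.5% to 9.31% of all probesets per difference. The 81 differences share groups and genes and are not independent of each other. Over all probesets tested, the share passing was 0.204% for IR against OUT at day 28 minus day 5, 0.325% for day 56 minus day 28 and 0.254% for day 56 minus day 5. For IN against OUT the shares were 0.438%, 1.25% and 0.292%, and for IR against IN they were 0.325%, 1.17% and 0.775%, in the same order of days.

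Factor B carries the protease of the alternative pathway enzyme, and in the pig assembly Sscrofa11.1 its gene lies beside C2, the corresponding gene of the classical pathway. Its leading probeset had a mean of 11.39 ± 0.60 in IR, 11.52 ± 0.43 in IN and 11.43 ± 0.65 in OUT at day 5 (SD, n = 6 each), the 3 highest group means of the study. At day 56 its lowest, median and highest values were 10.81, 11.34 and 11.61 in IN piglets, against 10.58, 10.84 and 10.93 in OUT piglets, so that 5 of 6 IN piglets lay above every OUT piglet. Its log2 fold change was 0.47 (standard error 0.19, limma p = 0.0226, adjusted p = 0.59, exact permutation p = 0.0108). The other CFB probeset had 9.40, 9.77 and 10.20 in IN piglets, against 8.71, 9.06 and 9.34 in OUT piglets of day 56. These did not overlap, and the log2 fold change was 0.78 (standard error 0.22, limma p = 0.00269, adjusted p = 0.504, exact permutation p = 0.00216), which is the smallest p that 6 against 6 allows. IR piglets of day 56 averaged 9.73 ± 0.60 at this probeset and OUT piglets 9.05 ± 0.22 (SD, n = 6 each), which differed by 0.68 (standard error 0.22, limma p = 0.00721, adjusted p = 0.653, exact permutation p = 0.0303). The leading probeset gave 0.14 for the same comparison (limma p = 0.448, exact permutation p = 0.494). Both CFB probesets ran together over the 54 arrays (Pearson r = 0.87) and had the same sign in 14 of 15 comparisons.

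Factor D, also known as adipsin, is the protease that cuts factor B and is made by fat cells and macrophages among others. At day 5 its lowest, median and highest values were 9.79, 10.42 and 10.59 in IR piglets, 10.34, 10.58 and 10.80 in IN piglets and 10.54, 10.81 and 10.92 in OUT piglets. Of the 6 IR piglets 5 lay below every OUT piglet, and the log2 fold change was -0.45 (standard error 0.12, limma p = 0.0018, adjusted p = 0.565, exact permutation p = 0.00433), a 1.37-fold difference. Without OUT replicate 3 it was -0.43 (limma adjusted p = 0.56). By day 56 the means were 11.17 ± 0.33 in IR, 11.02 ± 0.35 in IN and 10.86 ± 0.19 in OUT (SD, n = 6 each). The IR over OUT contrast of CFD differed between day 56 and day 5 by 0.76 (standard error 0.26, limma adjusted p = 0.984), and by 0.73 without OUT replicate 3 of day 5 (limma adjusted p = 0.886). The fat cell marker ADIPOQ, which encodes adiponectin, had a mean of 2.06 in IR, 2.29 in IN and 2.19 in OUT at day 5, when no piglet exceeded 2.65. The mean over 5 fat cell markers was 3.98 in IR, 3.86 in IN and 4.28 in OUT at that age, with 5.69 in OUT replicate 3. Its part in the CFD differences between groups was not tested.

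C5 yields the inflammatory peptide C5a and starts the membrane pore. At day 56 the lowest, median and highest values of its only probeset were 10.50, 10.91 and 11.20 in IN piglets, against 8.98, 9.85 and 10.60 in OUT piglets. The highest OUT piglet lay above the lowest IN piglet, and the other 5 IN piglets lay above all OUT piglets. C5 was thus 2.05-fold higher in IN than in OUT, its log2 fold change being 1.04 (standard error 0.24, 95% interval 0.54 to 1.54, limma p = 0.000405, adjusted p = 0.398, exact permutation p = 0.00433). IR piglets of the same day had 9.87, 10.19 and 10.59, which was 0.66 below IN (standard error 0.24, limma p = 0.0128, adjusted p = 0.768, exact permutation p = 0.00649) and 0.38 above OUT (exact permutation p = 0.223). At day 28 IN piglets stood lowest, with a mean of 10.34 ± 0.61 in IR, 9.47 ± 0.73 in IN and 10.04 ± 0.45 in OUT (SD, n = 6 each). The IN over OUT contrast was -0.56 at that age (limma p = 0.108, exact permutation p = 0.147). Its difference between day 56 and day 28 was 1.60 (standard error 0.63, limma adjusted p = 0.406), and 1.28 without the 5 arrays high in B cell and follicle markers (limma adjusted p = 0.812).

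The call of C5 rested on a fold change close to the threshold. Without IN replicate 2 its log2 fold change was 0.98, without OUT replicate 1 it was 0.97, without OUT replicate 2 it was 0.95 and without OUT replicate 5 it was 0.86, each below the fold threshold. With array weights it was 0.79 (limma adjusted p = 0.391). OUT replicates 5 and 2, which held the 2 lowest C5 values of the day (8.98 and 9.39), were also the OUT arrays high in B cell and follicle markers. Without both, IN over OUT was 0.70 (standard error 0.20, limma adjusted p = 0.633), which did not pass, and IR over OUT was 0.04 (limma adjusted p = 0.992). With all 9 groups in 1 fit the fold change was the same and the unadjusted limma p was 0.0245.

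C7 anchors the growing pore complex in the membrane. At day 5 its leading probeset had lowest, median and highest values of 8.97, 9.11 and 9.51 in IR piglets, 9.40, 9.82 and 10.001 in IN piglets and 9.16, 9.46 and 10.33 in OUT piglets. IR over IN gave a log2 fold change of -0.55 (standard error 0.18, limma p = 0.00809, adjusted p = 0.535, exact permutation p = 0.00866), with 5 of 6 IR piglets below every IN piglet. The second C7 probeset had 8.35, 8.84 and 9.13 in IR piglets and 9.28, 9.43 and 9.72 in IN piglets, which did not overlap. Its log2 fold change was -0.65 (standard error 0.24, limma p = 0.0144, adjusted p = 0.583, exact permutation p = 0.00216). Against OUT the same IR piglets gave -0.64 at this probeset (limma p = 0.0165, exact permutation p = 0.0476) and -0.40 without OUT replicate 3 (limma adjusted p = 0.689). At the leading probeset the values were -0.39 with that array (exact permutation p = 0.0844) and -0.24 without it (limma adjusted p = 0.758). At days 28 and 56 the group means of the leading probeset lay between 9.97 and 10.13, and no C7 value passed in a rearing comparison at any age. Both C7 probesets had the same sign in 11 of 15 comparisons (Pearson r = 0.62 over the 54 arrays).

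C9 forms the wall of the pore. At day 56 its leading probeset had lowest, median and highest values of 11.43, 11.71 and 11.83 in IN piglets, against 10.32, 10.97 and 11.33 in OUT piglets. Every IN piglet lay above every OUT piglet. The log2 fold change was 0.74 (standard error 0.18, 95% interval 0.37 to 1.12, limma p = 0.000572, adjusted p = 0.398, exact permutation p = 0.00216), a 1.67-fold difference below the fold threshold. Leaving out OUT replicates 2 and 5, it was 0.59 (standard error 0.18, limma adjusted p = 0.648). IR piglets had 10.71, 11.53 and 11.75 at that age, 0.48 above OUT (standard error 0.18, limma p = 0.0139, adjusted p = 0.653, exact permutation p = 0.0563). The second C9 probeset was dim and lay below the median of its own array in 47 of 54 arrays. The second probeset gave -0.10 for IN over OUT at day 56, and it had the same sign as the leading probeset in 10 of 15 comparisons.

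Over the 9 rearing comparisons the 9 probesets gave 81 values, of which 1, C5 in IN over OUT at day 56, passed the study's call rule (p below 0.01 without adjustment, and a fold change of 2 or more). A further 6 had p under 0.01 with a smaller fold, so that 8.64% of the 81 values had p under 0.01, beside 1.25% of the values of all probesets. In all 17 (20.99%) had p under 0.05, beside 2.58% to 7.83% of all probesets per comparison. No value had an adjusted p under 0.05. The share of all tested probesets that passed was 0.338% for IR over OUT, 0.05% for IN over OUT and 0.367% for IR over IN at day 5, and 0.154%, 0.192% and 0.496% for these comparisons at day 28. At day 56 it was 0.283% for IR over OUT, 0.275% for IN over OUT and 0.288% for IR over IN. The 3 comparisons of a day share their groups, and the 9 probesets stand for only 6 genes. C3, C5, C9 and CFB also ran together among piglets of the same group, so the 81 values are not independent of each other. For IN over OUT at day 56 the median log2 fold change of the 9 probesets was 0.36 and 8 of 9 were above 0, beside a median of -0.01 over all probesets. For IR over OUT at that age the median was 0.37 with 8 of 9 above 0. The mean over the 5 macrophage markers was 4.67 in IR, 5.34 in IN and 4.95 in OUT at day 56, and that over the 7 epithelial markers was 12.29 in IR, 12.25 in IN and 12.08 in OUT. The mean over the 6 T cell markers was 6.73 in IR, 7.53 in IN and 7.58 in OUT, and that over the B cell and follicle markers was 4.55 in IR, 4.90 in IN and 6.21 in OUT, where it spread between 3.87 and 10.91. The part of the macrophage, epithelial and T cell markers in the complement differences between groups was not tested.

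**Figure D2:**
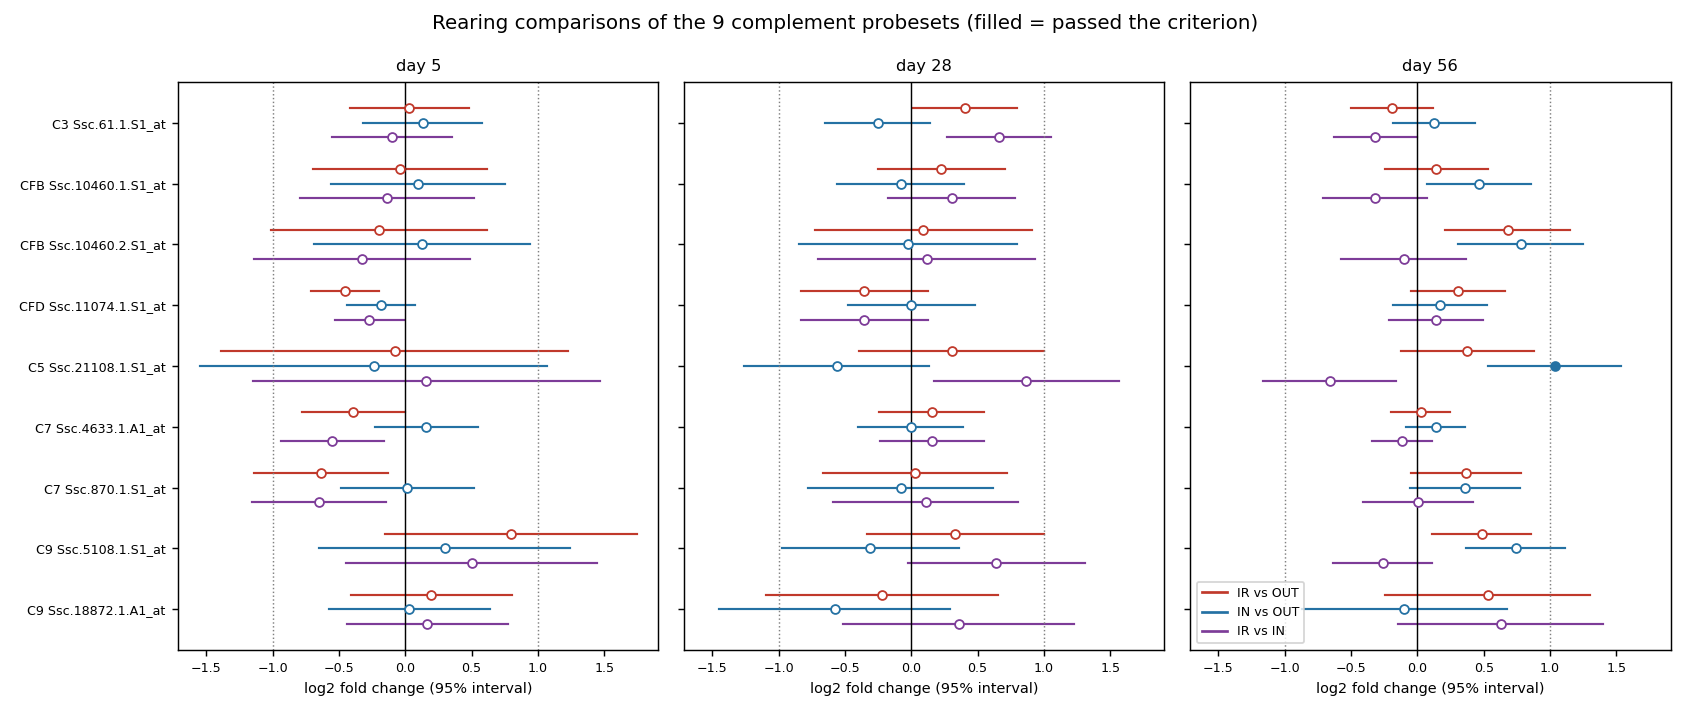
Log2 fold change with its 95% interval (horizontal axis) of the 9 probesets (vertical axis) in IR over OUT, IN over OUT and IR over IN at days 5, 28 and 56, with dotted lines at a fold change of 2 and filled points for probesets that passed. The only filled point is C5 in IN over OUT at day 56, at 1.04.

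With age, C5 was the member with the largest change. Its lowest, median and highest values in IR piglets were 7.23, 8.07 and 10.31 at day 5, 9.54, 10.31 and 11.03 at day 28 and 9.87, 10.19 and 10.59 at day 56. In OUT piglets they were 6.74, 8.59 and 10.10, then 9.16, 10.13 and 10.37, then 8.98, 9.85 and 10.60. The IN piglets had 7.38, 8.09 and 9.95, then 8.61, 9.53 and 10.71, then 10.50, 10.91 and 11.20. From day 5 to day 28 C5 rose 3.67-fold in IR (log2 fold change 1.87, standard error 0.45, limma adjusted p = 0.00264) and 2.81-fold in OUT (1.49, standard error 0.45, limma adjusted p = 0.0162), and all these age groups overlapped. Without OUT replicate 3 of day 5 the value in OUT was 1.68 (limma adjusted p = 0.00853), without OUT replicate 1 of day 5 it was 1.13 (limma adjusted p = 0.0761), and with only the 2 OUT groups in the fit the adjusted p was 0.0919. In IN the value was 1.17 (standard error 0.45, limma adjusted p = 0.0551), which did not pass. Between day 28 and day 56 it was 1.41 in IN (standard error 0.45, limma adjusted p = 0.0506), -0.11 in IR and -0.19 in OUT.

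The spread of C5 among piglets also differed with age, with an SD of 0.29 in IR, 0.23 in IN and 0.65 in OUT at day 56 and of 1.23 in IR, 0.87 in IN and 1.30 in OUT at day 5. No test of the spread was made. In the order of group means the 3 groups of day 5 were lowest, and the step from OUT day 5 to the next group, IN day 28, was 0.93. That step was larger than the SD of IN day 28 (0.73) but smaller than that of OUT day 5 (1.30). Neighbouring means from IN day 28 up to IR day 28 differed by less than the SD of either neighbour. IN day 56 was 0.55 above IR day 28, more than its own SD (0.23) but less than the SD of IR day 28 (0.61).

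The leading probeset of C7 had 9.74, 10.16 and 10.56 in IR piglets of day 28, all above the IR piglets of day 5, which had 8.97, 9.11 and 9.51. Its log2 fold change of 0.95 (standard error 0.16, limma adjusted p = 5.04e-05, exact permutation p = 0.00216) was a 1.93-fold difference, just under the fold threshold. Without IR replicate 1 of day 5 it was 1.01 and without IR replicate 3 of day 28 it was 1.02, both past the threshold. In IN the value was 0.24 (limma adjusted p = 0.313) and in OUT 0.40 (limma adjusted p = 0.0844), or 0.55 without OUT replicate 3 of day 5 (limma adjusted p = 0.0109). The IR over IN contrast of C7 differed between day 28 and day 5 by 0.71 (standard error 0.23, limma adjusted p = 0.837).

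C9 and C3 also varied with age in IN piglets. C9 had a mean of 10.39 ± 0.96 at day 5, 10.66 ± 0.69 at day 28 and 11.68 ± 0.14 at day 56 (SD, n = 6 each), and the step of 1.02 between day 28 and day 56 had a limma adjusted p of 0.0705. C3 had 13.50 ± 0.30, 12.95 ± 0.41 and 13.54 ± 0.18 in the same order of days. Its log2 fold change was -0.55 for day 28 over day 5 (standard error 0.19, limma adjusted p = 0.029) and 0.59 for day 56 over day 28 (standard error 0.19, limma adjusted p = 0.0518), both under a fold change of 2. Leaving out the arrays high in B cell and follicle markers, the C3 value for day 28 over day 5 was -0.58 (limma adjusted p = 0.0735). CFB at its leading probeset had -0.58 in IN for day 28 over day 5 (limma adjusted p = 0.0957), and CFD had 0.51 in IR for day 56 over day 28 (limma adjusted p = 0.0956).

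In the day comparisons, where a call needed an adjusted p below 0.05 and again a fold change of 2 or more, 2 of the 54 values passed. For day 28 over day 5 these were 1 of 9 probesets in IR, 0 in IN and 1 in OUT, beside 5.95%, 8.13% and 6.79% of all probesets in IR, IN and OUT. For day 56 over day 28 none of the 9 probesets passed in the limma fits, beside 1.83%, 1.88% and 2.56% of all probesets in IR, IN and OUT. At an unadjusted p under 0.05 were 3 of 9 in IR, 4 of 9 in IN and 0 of 9 in OUT, beside 18.5%, 19.5% and 22% of all probesets. Neighbouring day comparisons share their day 28 piglets.

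**Figure D3:**
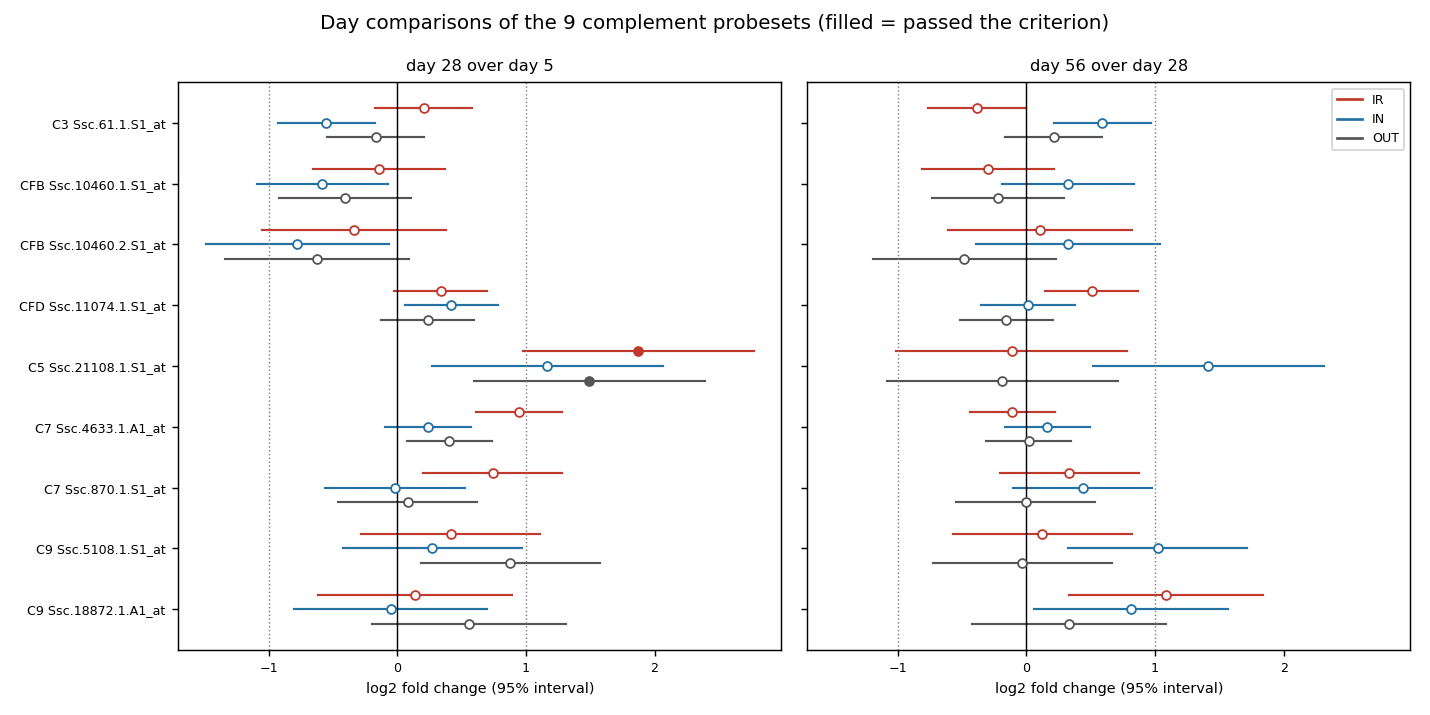
Log2 fold change with its 95% interval (horizontal axis) of the 9 probesets (vertical axis) for day 28 over day 5 and for day 56 over day 28, coloured by rearing, with dotted lines at a fold change of 2. Filled points passed the criterion and mark C5 in IR at 1.87 and in OUT at 1.49.

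Piglets of the same group that were high in one complement gene tended to be high in others. Each value was taken as its deviation from the mean of its own group, and the 15 pairs of leading probesets were correlated over the 54 piglets, with p from 100000 shuffles of piglets within groups and adjustment over the 15 pairs. The labels give neither run nor sow, so the shuffles treated piglets of a group as exchangeable. A shift shared by a run or litter would enter these correlations and their p-values, which was not tested. C5 and C9 had the highest correlation (Pearson r = 0.78, Spearman rho = 0.74, permutation p = 1e-05 for both, the smallest these shuffles can give, adjusted p = 3.75e-05 and 5e-05). Leaving out the 2 piglets farthest from the median of C5, r was 0.73. Within days the coefficients were 0.80 at day 5, 0.79 at day 28 and 0.68 at day 56. C5 also ran with CFB (r = 0.73, rho = 0.69, permutation p = 1e-05 for both, adjusted p = 3.75e-05 and 5e-05), with 0.66 after the same omission. Its within-day values were 0.88 at day 5, 0.71 at day 28 and 0.15 at day 56, each over 18 piglets and not tested against each other.

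C3 correlated with C5 at r = 0.68 (rho = 0.63, permutation p = 1e-05 for both, adjusted p = 3.75e-05 and 5e-05), with C9 at r = 0.64 (rho = 0.63, permutation p = 2e-05 for both, adjusted p = 6e-05 and 7.5e-05) and with CFB at r = 0.65 (rho = 0.60, permutation p = 1e-05 and 5e-05, adjusted p = 3.75e-05 and 0.00015). Without the 2 piglets farthest in C3 these were 0.67, 0.63 and 0.62. The C3 and CFB pair had r = 0.93 at day 5, 0.45 at day 28 and 0.28 at day 56. C9 and CFB had r = 0.59 (rho = 0.54, permutation p = 0.0002 and 0.0004, adjusted p = 0.0005 and 0.001) and 0.55 without the 2 piglets farthest in C9. The 6 pairs among C3, C5, C9 and CFB had r between 0.62 and 0.80 without OUT replicate 3 of day 5, with 0.91 for C3 and CFB and 0.89 for C5 and CFB at day 5. For all 6 pairs the correlation at day 5 exceeded that at day 56, which was not tested as a difference. Without the arrays high in B cell and follicle markers this held for 5 of the 6, C3 and C9 having 0.69 at day 5 and 0.84 at day 56.

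CFD did not run with C3, C5 or C9, its r being -0.09, 0.02 and -0.11 (permutation p = 0.499, 0.891 and 0.409, adjusted p = 0.534, 0.891 and 0.472, with rho of -0.02, -0.02 and -0.20 at permutation p = 0.868, 0.866 and 0.174). Its highest value was with C7 (r = 0.36, rho = 0.31, permutation p = 0.00975 and 0.0308, adjusted p = 0.0209 and 0.0577). That pair had 0.62 at day 28 but 0.01 at day 5 and 0.24 at day 56. In all, 10 of the 15 pairs had an adjusted p under 0.05 for Pearson's r and 7 for Spearman's rho. Without OUT replicate 3 of day 5 these were 8 and 6, the C3 and C7 pair (r = 0.30, rho = 0.26, permutation p = 0.0617 and 0.0916) and the C7 and CFB pair (r = 0.26, rho = 0.26, permutation p = 0.0907 and 0.0901) no longer passing for r. The share of passing pairs among other probesets was not computed, so these counts have no background beside them.

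**Figure D4:**
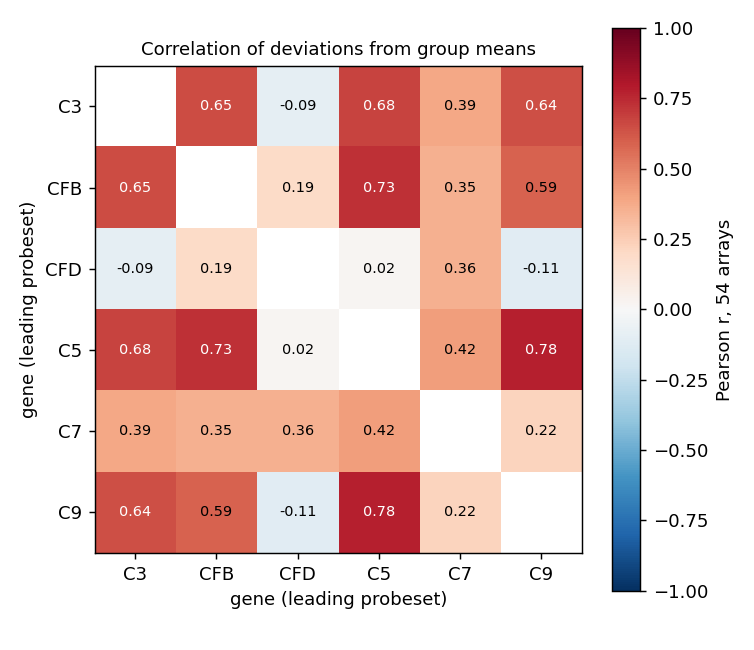
Pearson r (colour and number) between the deviations of 54 piglets from their group means for each pair of the 6 genes at their leading probesets (both axes). C3, CFB, C5 and C9 form pairs of 0.59 to 0.78, and CFD has its highest value, 0.36, with C7.

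The same deviations were set against the means of 10 cell type marker lists, 60 pairs in all. One pair had an adjusted p under 0.05, C3 with the 5 macrophage markers (r = 0.53, rho = 0.49, permutation p = 0.00011 and 0.00028, adjusted p = 0.0066 and 0.0168), and r was 0.55 without the 2 piglets farthest in C3. Without OUT replicate 3 of day 5 r was 0.46 (rho = 0.46, permutation p = 0.00072 and 0.0011, adjusted p = 0.0432 and 0.066), and 0.43 at day 5, and C9 with the epithelial markers had r = 0.42 with an adjusted p of 0.0456 (0.096 for rho). For C3 with the macrophage markers over all 54 arrays, the coefficient within single days was 0.55 at day 5 and 0.53 at both later ages. C7 with the macrophage list had r = 0.53 (rho = 0.35, permutation p = 0.00562 and 0.0217, adjusted p = 0.0838 and 0.145), which was 0.25 without its 2 farthest piglets and 0.39 without OUT replicate 3 of day 5. CFD with the 5 fat cell markers had r = 0.28 (rho = 0.24, permutation p = 0.0347 and 0.103, adjusted p = 0.231 and 0.381). Its within-day values were 0.16 at day 5, 0.45 at day 28 and 0.06 at day 56.

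Over the 54 arrays, group differences included, the named probesets most like C5 belonged to PI3, a protease inhibitor (Pearson r = 0.88), C4BPB, the beta chain of C4b-binding protein (r = 0.87), and LGALS4, a galectin of the gut lining (r = 0.86). C9 was most like ATP2C2, a calcium pump (r = 0.76), KRT19, an epithelial keratin (r = 0.73), and PI3 (r = 0.73). CFB was most like both probesets of OLFM4, a secreted glycoprotein of human intestinal crypts (r = 0.80 and 0.78), and FOXA1, a transcription factor (r = 0.63). OLFM4 was also first for C3 (r = 0.63), followed by GATAD2A (r = 0.63) and SREBF2 (r = 0.62). C7 was most like 3 genes of white blood cells, SRGN, a granule proteoglycan (r = 0.79), TYROBP, an adaptor of myeloid receptors (r = 0.78), and FCGR3A, an antibody receptor (r = 0.77). CFD was most like S100B (r = 0.69), CNDP1 (r = 0.68) and PER1, a clock gene (r = 0.68). These are descriptions over arrays that share age and rearing, without a test.

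The rest of the cascade was examined through 25 further complement genes on the array, each at its brightest probeset. From day 5 to day 28 the criterion was passed by 11 higher and 1 lower of the 25 in IR, by 4 higher and 2 lower in IN and by 4 higher and 1 lower in OUT, beside 5.95%, 8.13% and 6.79% of all probesets in either direction. The counts in OUT were the same without OUT replicate 3 of day 5, with the same 5 genes, and without the arrays high in B cell and follicle markers those in IN were 2 higher and 0 lower. Their median log2 fold change was 0.94 in IR, 0.70 in IN and 0.55 in OUT, beside -0.01, -0.02 and -0.01 over all probesets. From day 28 to day 56 none of the 25 passed in the limma fits, with 6 in IR, 4 in IN and 2 in OUT at an unadjusted p under 0.05, beside the 18.5%, 19.5% and 22% of all probesets given above. The medians were -0.34 in IR, 0.07 in IN and 0.20 in OUT. The mean over the 5 macrophage markers at day 28 was 5.61 in IR, 5.28 in IN and 5.00 in OUT, against 4.16 in IR, 4.28 in IN and 4.50 in OUT at day 5, where OUT replicate 3 had 6.15 and the other 5 OUT piglets 4.03 to 4.41. Single markers did not all follow this order at day 28. CD163 had 7.23 in IR, 7.04 in IN and 7.08 in OUT, and CD14 had 3.18, 3.43 and 3.16. IR over OUT was above 0 in 5 of 5 markers (median 0.15, 1 called), and IR over IN in 3 of 5 (median 0.19, 0 called). The mean over the 6 T cell markers at day 28 was 6.81 in IR, 6.18 in IN and 6.03 in OUT, against 3.30 in IR, 3.47 in IN and 3.44 in OUT at day 5, with 5 of 6 called higher in each. The B cell and follicle mean at day 28 was 3.66 in IR, 5.79 in IN and 4.58 in OUT, against 3.26 in IR, 3.35 in IN and 3.21 in OUT at day 5. The part of the macrophage and T cell markers in these values was not tested.

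The regulator C4BPA, the alpha chain of the protein that holds C4b and speeds its destruction, had the largest change. At day 28 its lowest, median and highest values were 10.73, 11.03 and 11.87 in IR, 7.65, 10.28 and 11.07 in IN and 7.79, 9.96 and 10.57 in OUT. At day 5 they were 5.09, 5.34 and 5.83 in IR, 4.35, 5.16 and 6.69 in IN and 3.86, 5.56 and 6.02 in OUT, so that the ages did not overlap in any rearing group. It rose by 5.72 in IR, 4.69 in IN and 4.31 in OUT on the log2 scale (standard error 0.43 each), and by 4.41 in OUT without OUT replicate 3 of day 5. C4BPA was also the only one of the 25 to pass in any of the 9 rearing comparisons, at 1.67 in IR over OUT at day 28 on the log2 scale (standard error 0.56, limma p = 0.00842, adjusted p = 0.999, exact permutation p = 0.00216). Of all probesets 0.154% passed in that comparison, and 0.05% to 0.496% passed in each of the 9. C4BPB rose in IR (2.54, standard error 0.54, limma adjusted p = 0.000711) and OUT (1.95, standard error 0.54, limma adjusted p = 0.00897).

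Among the genes that start the classical pathway, C2 rose in all rearing groups from day 5 to day 28, by 2.97 in IR, 2.73 in IN and 2.37 in OUT (standard error 0.74 each, limma adjusted p = 0.0043, 0.00668 and 0.0218). Without IN replicates 2 and 6 and the other arrays high in B cell and follicle markers its value in IN was 1.84 (limma adjusted p = 0.123), and without OUT replicate 3 of day 5 that in OUT was 2.73. C1QA and C1QC, chains of the antibody-binding C1q, rose in IR by 1.92 and 1.63 (limma adjusted p = 0.00379 and 3.2e-05), and so did the proteases C1R by 1.02 and C1S by 1.21 and the component C4A by 1.88. In IN and OUT these 5 genes did not pass. In IN piglets of day 28 the lowest and median values were 5.57 and 10.05 for C1QA and 7.39 and 10.48 for C4A. They were 9.38 and 11.65 for C1QC, 9.52 and 11.41 for C1R and 9.57 and 11.33 for C1S. The IN medians of day 5 were 9.01, 9.38, 10.62, 10.45 and 10.09 in the same order of genes. Single IN arrays were not left out for these genes. Of the receptors, ITGB2, the shared beta chain of complement receptors 3 and 4, rose by 2.70 in IR, 2.13 in IN and 1.86 in OUT, and VSIG4, a macrophage receptor for C3 fragments, by 1.21 in IR. SERPING1, the inhibitor of C1, rose by 1.33 in IR and CLU, a fluid-phase blocker of the pore, by 2.49 in IN. Without the arrays high in B cell and follicle markers ITGB2 in IN was 1.34 (limma adjusted p = 0.0887) and did not pass, CLU in IN still passed (limma adjusted p = 0.0281) and CLU in IR also passed, at 1.21 (limma adjusted p = 0.00829). Whether the rise differed between rearing groups was not tested for these genes.

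C8B and C8G encode subunits of C8, which joins the pore between C7 and C9, and they were the only ones of the 25 that passed as lower. C8B had 2.58, 2.78 and 2.91 in IR, 2.57, 2.93 and 5.09 in IN and 2.58, 2.86 and 3.45 in OUT at day 28 (lowest, median and highest). At day 5 it had 3.13, 4.07 and 5.99 in IR, 3.53, 4.95 and 5.88 in IN and 2.79, 4.87 and 6.81 in OUT. It fell by 1.58 in IR, 1.49 in IN and 1.84 in OUT (standard error 0.42 each, limma adjusted p = 0.007, 0.00871 and 0.0016). Without OUT replicate 3 of day 5 the value in OUT was -2.23, and without the arrays high in B cell and follicle markers that in IN was -1.23 (limma adjusted p = 0.0994), which did not pass. C8G passed as lower in IN (limma adjusted p = 0.000573), though not without the arrays high in B cell and follicle markers. The day 28 group means of both genes lay between 2.27 and 3.30, below the array medians, as did those of C8G at day 5. No detection calls were used here, and the sizes given for C8B are at best lower bounds.

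**Figure D5:**
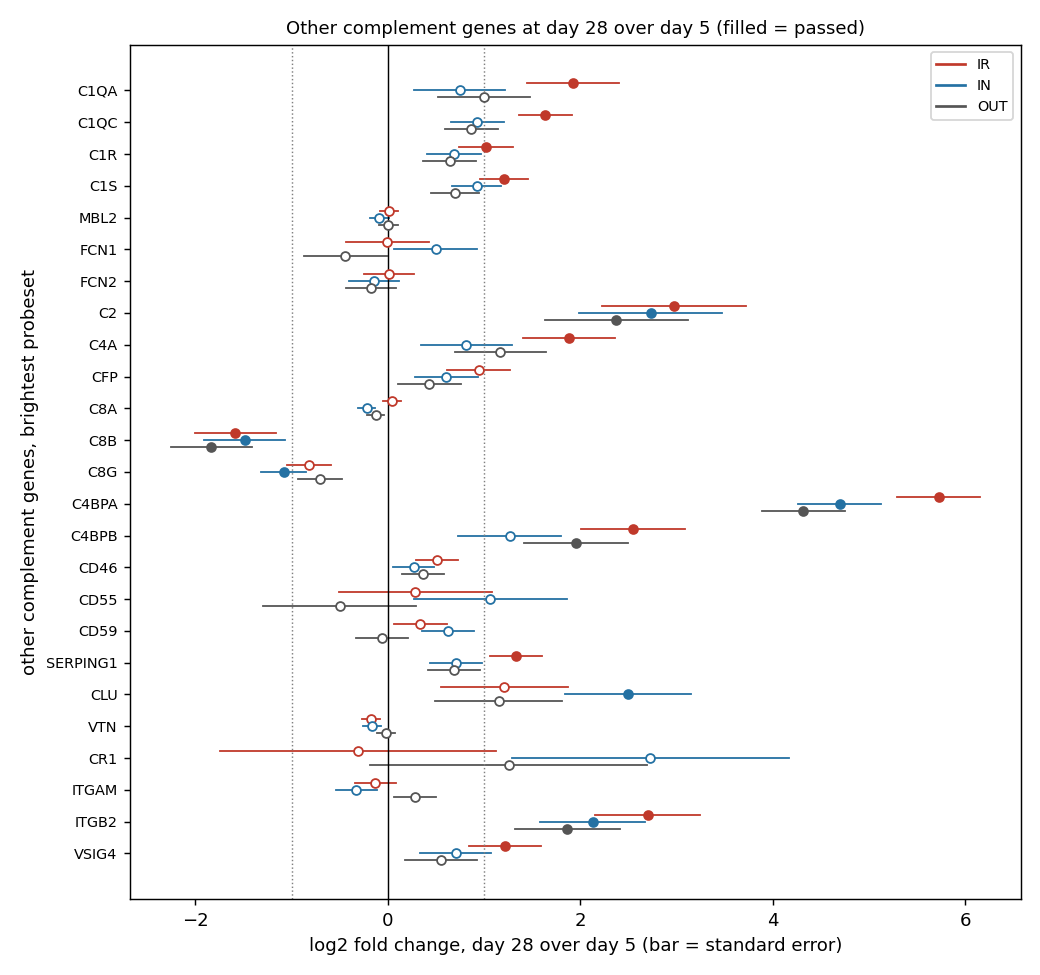
Log2 fold change of day 28 over day 5 with its standard error (horizontal axis) for 25 other complement genes at their brightest probeset (vertical axis), coloured by rearing, with filled points for genes that passed. C4BPA lies farthest to the right, at 5.72 in IR, 4.69 in IN and 4.31 in OUT, and C8B farthest to the left.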

How the data were processed

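RNA from 54 ileum samples was hybridized to GeneChip Porcine Genome arrays, read with GCOS 1.2 per the submitters' processing notes. The authors applied gcRMA, and the deposited signals, on the log2 scale, were taken without further scaling. The table has 24123 probesets, of which 124 control probesets were left out. The platform annotation gives 1 symbol to 10069 of the 23999 others, several to 198 and none to 13732. Arrays give no counts, and their number limits the precision.

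Rearing comparisons were fitted with limma 3.58.1 (R 4.3.3) within each day over its 3 groups, and called by the study's rule, which asks for p below 0.01 before adjustment and a fold change of 2 or more. Day comparisons and differences between days were fitted over all 9 groups. Adjusted p-values are Benjamini-Hochberg values over all 23999 probesets. Exact permutation tests were two-sided over all splits of 6 and 6 piglets. Correlations were computed in Python 3.11.15. The fits were also run on simulated data with known shifts and independent noise, which cannot show effects of litter, run or tissue make-up. The labels do not give the run, which the study's methods use as a block, so no run was fitted.

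The members and gene lists were chosen with earlier results of these data known. Named were all member probesets, other complement genes that passed a comparison, and for each leading probeset the 3 other named probesets with the highest correlation. No sequences are printed. Fits without the arrays high in B cell and follicle markers, and correlations and differences between days without OUT replicate 3 of day 5, were added after seeing the data.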

Additional observations from a re-analysis of the deposited data

Results flagged for a closer look

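In 81 groups of 6 values (9 probesets in 9 groups), 7 had 1 piglet whose gap to the nearest other piglet exceeded Dixon's 95% limit, a limit that chance passes in about 1 group in 20. For C3 the unnumbered IR piglet of day 56 had 12.59, with the next at 13.19. For C5 OUT replicate 2 of day 28 had 9.16, with the next at 10.07. IR replicate 2 of day 28 had 8.80 at the second C7 probeset, with the next at 9.54. For C9 IN replicate 1 of day 56 had 11.43 at the leading probeset, with the next at 11.69, and it still lay above every OUT piglet of that day. The other 3 lay at the dim C9 probeset, where IR replicate 1 of day 5 had 4.43 with the next at 2.70, IN replicate 6 of day 5 had 3.34 with the next at 2.75, and IN replicate 4 of day 56 had 4.49 with the next at 3.44.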

How the results depend on the processing

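Of 3078 alternative values of the single probesets, 3043 kept their side of the criterion, 26 newly passed and 9 no longer passed. The sign changed in 148, none of which passed before or after, and whose values with all arrays were at most 0.34 in size. Whether the numbers in the labels paired the piglets could not be settled. Deviations of same-numbered piglets of different rearing groups correlated between -0.48 and 0.68, with medians of 0.00 to 0.09 per day. For most pairs of differing numbers the range was -0.57 to 0.50, with medians of -0.02 to -0.005 per day. A replicate block by number was fitted on the numbered arrays only, so without the 2 unnumbered ones of day 56. It left C5 in IN over OUT at day 56 called at 1.11 and changed no count of called probesets. The IN array it left out held the lowest IN value of C5 that day, 10.50. For IN over OUT at day 56 the 1 call became 0 with all 9 groups in 1 fit, with adjusted p under 0.05 and with array weights, and 0 to 1 with each array left out in turn. It was also 0, with C5 at 0.70, without the 5 arrays high in B cell and follicle markers, a setting chosen after seeing the data. For IR over IN at day 28 the count was 0 to 1 with single arrays left out, C5 passing without IR replicate 4 at 1.03 or IN replicate 1 at 1.11. For day 28 over day 5 in IR it was 2 with median centring, C7 joining at 1.04, and 1 to 2 with single arrays left out, C7 joining without IR replicate 3 of day 28 or IR replicate 1 of day 5. In IN it was 1 with dim probesets left out and with median centring, and 0 to 1 with single arrays left out, C5 passing without IN replicate 3 (1.34) or 4 (1.29) of day 28 or IN replicate 6 of day 5 (1.49). In OUT it was 0 with only the 2 groups compared, 2 with array weights and 0 to 2 with single arrays left out, C9 joining at 1.18 with array weights and at up to 1.09 without OUT replicate 2 of day 28 or OUT replicate 2 or 6 of day 5, and C5 lost without OUT replicate 1 of day 5. For day 56 over day 28 in IR it was 1 with unadjusted p under 0.01 and with array weights and 0 to 1 with single arrays left out, at the dim C9 probeset (1.24 without IR replicate 5 of day 56, 1.35 without IR replicate 3 of day 28). In IN it was 2 with unadjusted p under 0.01, 1 with only the 2 groups compared, with dim probesets left out, with renewed quantile normalization and with an intensity trend, and 0 to 2 with single arrays left out, C5 (1.66) and C9 (1.24) passing without IN replicate 1 of day 28. The causes were not tested. Groups of 6 cannot reach an exact permutation p below 0.00216.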
